A study of Homo sapiens with 6 samples.

Results

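MHC class I antigen presentation was followed through 9 genes in the DBTRG data: the heavy chain genes HLA-B, HLA-C, HLA-E and HLA-F, the light chain gene B2M, the peptide transporter subunits TAP1 and TAP2, the loading factor TAPBP and the peptide-trimming enzyme ERAP1. They were taken by symbol from a table of 58884 genes, each symbol had 1 row, and all 9 passed the low-count filter, as did 16098 genes in all. DBTRG is an established human glioblastoma cell line, labelled wild type. Cells spent 5 days in 1 of 2 settings, a rigid dish (2D) or a soft gel (3D), with no other agent named in either group, and RNA was sequenced from 3 libraries per group. Nothing in the labels ties the 3 libraries of a group to separate cultures. The p-values therefore rest on library-to-library spread alone, which may be technical.

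Class I molecules display short peptides from inside the cell to cytotoxic T cells and natural killer cells. Peptides cut by the proteasome are pumped into the endoplasmic reticulum by the transporter TAP, trimmed by ERAP1, and loaded onto a heavy chain paired with beta-2 microglobulin, with tapasin (TAPBP) holding the empty complex at the transporter. Interferon and the coactivator NLRC5 are known to raise transcription of these genes, and loss of class I display is a known route by which tumours, glioblastoma included, avoid T cells.

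The 5 chain genes rose in soft gel, by 1.47-fold to 1.81-fold, whereas among the 4 transport, loading and trimming genes only TAPBP passed the test, at 1.28-fold and just inside the threshold. In all, 6 of 9 genes (66.7%) were higher at an adjusted p below 0.05 and 0 were lower, while 15.4% of all 16098 genes tested were higher and 13.2% lower. Over rigid dish, soft gel had a median log2 fold change of 0.56 across the 9 genes, 0.78 over the 5 chain genes and 0.22 over the other 4, against 0.05 over all genes tested. The groups did not overlap in CPM (counts scaled to library size, with TMM factors) for 7 of the 9 genes, all higher in soft gel, and 23.5% of all genes tested did the same. These are bulk samples, in which fewer cells of a kind and less RNA per cell cannot be told apart. Unless stated otherwise, tests are edgeR's quasi-likelihood test with Benjamini-Hochberg adjustment over all genes tested.

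Of the 9 genes, 7 lie on chromosome 6 in the major histocompatibility complex, B2M on chromosome 15 and ERAP1 on chromosome 5. RefSeq promoter windows (GRCh38.p14, 250 bases before to 50 after the start) were matched for 8 of the 9 genes, HLA-E being unmatched. Windows of the risen chain genes are shown with those of TAP1 and TAP2, which did not pass, because class I promoters share short elements that regulators are known to bind. HLA-B is shown from chr6:31357130-31357429 (minus strand), HLA-C from chr6:31272043-31272342 (minus), HLA-F from chr6:29723184-29723483 (plus), B2M from chr15:44711267-44711566 (plus), TAP1 from chr6:32853655-32853954 (minus) and TAP2 from chr6:32838690-32838989 (minus). Capitals mark GAAA, any 2 bases and GAAA (core of the interferon-stimulated response element, ISRE), TGACGC (a CRE-like hexamer of the X2 box) and ATTGG (the Y box, CCAAT on the other strand), searched on both strands, with the sequence printed 5′ to 3′ on the gene's strand.
HLA-B: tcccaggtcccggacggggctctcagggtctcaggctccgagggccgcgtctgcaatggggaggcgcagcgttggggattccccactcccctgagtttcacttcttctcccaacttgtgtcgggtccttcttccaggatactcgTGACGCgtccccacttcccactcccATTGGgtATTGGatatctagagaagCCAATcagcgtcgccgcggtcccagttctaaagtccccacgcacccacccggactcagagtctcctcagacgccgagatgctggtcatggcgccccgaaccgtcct
HLA-C: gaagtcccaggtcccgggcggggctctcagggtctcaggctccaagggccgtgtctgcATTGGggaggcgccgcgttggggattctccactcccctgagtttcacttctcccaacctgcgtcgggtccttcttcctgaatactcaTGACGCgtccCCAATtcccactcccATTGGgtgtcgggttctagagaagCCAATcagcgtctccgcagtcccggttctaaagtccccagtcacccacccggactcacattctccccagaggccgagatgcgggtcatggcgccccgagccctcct
HLA-F: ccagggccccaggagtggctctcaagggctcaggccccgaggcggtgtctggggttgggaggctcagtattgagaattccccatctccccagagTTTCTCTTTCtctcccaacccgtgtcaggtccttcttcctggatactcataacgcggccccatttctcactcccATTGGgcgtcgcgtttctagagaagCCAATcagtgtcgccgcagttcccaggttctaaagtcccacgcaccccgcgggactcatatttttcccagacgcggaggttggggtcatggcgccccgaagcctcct
B2M: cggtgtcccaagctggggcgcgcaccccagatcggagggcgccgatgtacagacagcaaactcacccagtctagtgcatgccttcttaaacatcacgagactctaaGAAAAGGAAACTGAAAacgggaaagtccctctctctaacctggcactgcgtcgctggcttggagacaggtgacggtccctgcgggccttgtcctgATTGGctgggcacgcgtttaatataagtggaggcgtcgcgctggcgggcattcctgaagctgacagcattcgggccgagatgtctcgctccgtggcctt
TAP1: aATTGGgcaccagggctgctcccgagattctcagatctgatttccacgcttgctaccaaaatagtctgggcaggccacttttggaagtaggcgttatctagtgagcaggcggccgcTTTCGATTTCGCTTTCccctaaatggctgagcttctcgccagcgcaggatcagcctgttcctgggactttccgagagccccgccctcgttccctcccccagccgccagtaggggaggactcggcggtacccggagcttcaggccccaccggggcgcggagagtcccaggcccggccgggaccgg
TAP2: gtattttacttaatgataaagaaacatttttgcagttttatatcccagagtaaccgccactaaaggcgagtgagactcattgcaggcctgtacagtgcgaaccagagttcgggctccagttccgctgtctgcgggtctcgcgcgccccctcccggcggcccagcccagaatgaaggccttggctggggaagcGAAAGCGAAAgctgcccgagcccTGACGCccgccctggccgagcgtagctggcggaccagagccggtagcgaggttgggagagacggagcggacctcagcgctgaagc

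The HLA-B and HLA-C windows were 88.5% identical over 304 alignment columns, and HLA-F was 79.7% identical to HLA-B. ATTGG was found for 6 of 8 genes, among them at position -81 in HLA-B, -80 in HLA-C, -82 in HLA-F and -49 in B2M, and at -249 in TAP1 and -154 in ERAP1, which did not pass (the start base is position 0). TGACGC stood at -106 in HLA-B and -105 in HLA-C. It also stood at -35 in TAP2, whose RNA level did not pass. The ISRE core was found for 6 of 8 genes (in any RefSeq window of the gene), in HLA-F, B2M, TAP1, TAP2, TAPBP and ERAP1, as overlapping copies at -144 and -138 in B2M and at -134 and -128 in TAP1. Among 35116 promoter windows of the same length, 3.57% held the ISRE core, 9.14% TGACGC and 34.6% ATTGG. A looser NF-kB type pattern (GGG, any 5 bases, CC) was in 58.7% of windows and in those of 7 of the 8 genes. A match describes the letters and is not evidence of binding. Only these exact patterns were searched, so a missing match, as for the ISRE core in HLA-B and HLA-C, does not show that the element is absent. The TAP1 window shares 13 bases with that of PSMB9, an immunoproteasome gene read in the opposite direction.

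HLA-B encodes a classical heavy chain that presents peptides to CD8 T cells (ENSG00000234745, hg38 chromosome 6, 31269491 to 31357188 in GENCODE release 29, minus strand). Its level was 601, 760.1 and 800.1 CPM in rigid dish 1, 2 and 3, and 1340.3, 1164 and 1417 CPM in soft gel 1, 2 and 3. Every soft gel library lay above every rigid dish library, and the log2 fold change was 0.86 (SE 0.138, edgeR adjusted p = 0.00334), a fold of 1.81 with a 95% interval of 1.46 to 2.25.

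HLA-C encodes another classical heavy chain, which is also a ligand of killer cell immunoglobulin-like receptors (ENSG00000204525, chromosome 6, 31268749 to 31272130, minus strand). It was at 791, 1117 and 1283 CPM in 2D and at 1862, 1658 and 1976 CPM in soft gel. Rigid dish 1 was the lowest library, as for HLA-B, and the groups did not overlap. The log2 fold change was 0.78 (SE 0.172, edgeR adjusted p = 0.0114), a fold of 1.72 (95% interval 1.32 to 2.25).

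HLA-E, a non-classical heavy chain that binds leader peptides of other class I chains and is recognised by the inhibitory receptor NKG2A (ENSG00000204592, chromosome 6, 30489467 to 30494205, plus strand), had the smallest rise of the 5 chain genes. It was at 148, 171 and 185 CPM in 2D and 243, 233 and 266 CPM in soft gel, again with no overlap. The log2 fold change was 0.56 (SE 0.119, edgeR adjusted p = 0.01), a fold of 1.47 (95% interval 1.22 to 1.77). Whether its rise differs from that of HLA-B was not tested.

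HLA-F, a non-classical heavy chain found partly in a peptide-free form (ENSG00000204642, chromosome 6, 29722775 to 29738528, plus strand), was at 15.9, 21.5 and 23.1 CPM in 2D and 38.0, 30.7 and 40.0 CPM in soft gel. The groups did not overlap. Its log2 fold change was 0.85 (SE 0.172, edgeR adjusted p = 0.0082) with a fold of 1.8 (95% interval 1.38 to 2.35).

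B2M encodes beta-2 microglobulin, the light chain that pairs with these heavy chains (ENSG00000166710, chromosome 15, 44711487 to 44718877, plus strand). It was at 1254, 1453 and 1518 CPM in 2D and 2294, 2202 and 2264 CPM in soft gel, where the 3 libraries lay close together (SD 46.5 CPM, n = 3, against 137 CPM in 2D). The log2 fold change was 0.68 (SE 0.111, edgeR adjusted p = 0.00361), a fold of 1.6 (95% interval 1.35 to 1.9). B2M is the chain gene outside chromosome 6, and its counts were whole numbers in all 6 libraries, whereas HLA-B, HLA-C, HLA-E and HLA-F held decimals in all 6.

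**Figure D1:**
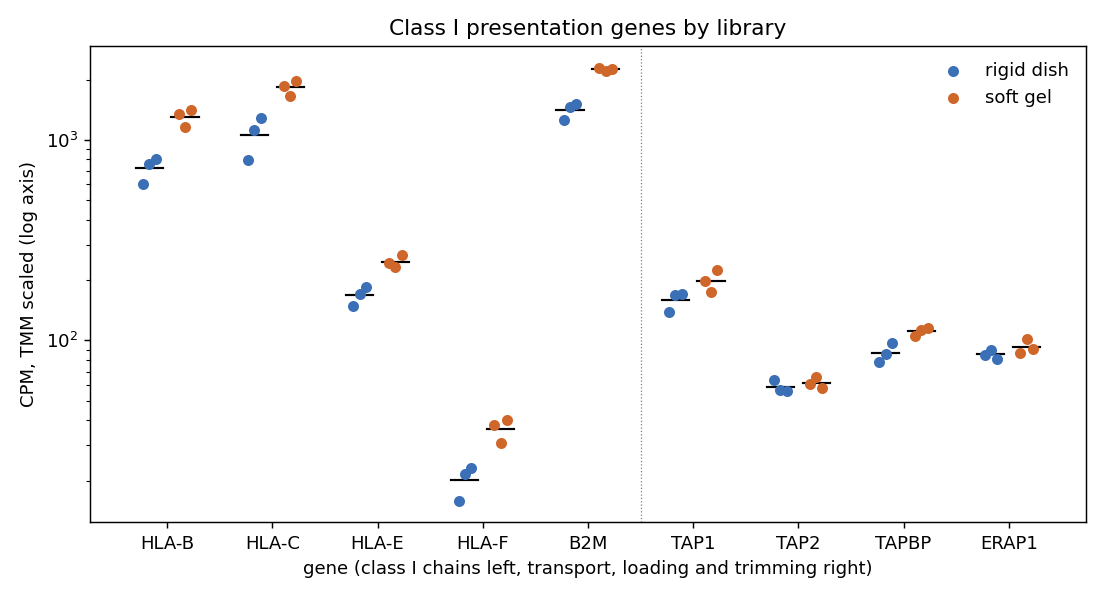
CPM after TMM scaling (log axis) of the 9 genes in each of the 3 rigid dish (blue) and 3 soft gel (orange) libraries, with the group mean as a black line and the chain genes left of the dotted line. The soft gel points of HLA-B, HLA-C, HLA-E, HLA-F and B2M lie above all rigid dish points, as do those of TAP1 and TAPBP by a smaller distance, while TAP2 and ERAP1 overlap.

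TAP1, one subunit of the peptide transporter (ENSG00000168394, chromosome 6, 32845209 to 32853978, minus strand), was at 139, 168 and 171 CPM in 2D and 198, 175 and 224 CPM in soft gel. The groups did not overlap, but the gap between rigid dish 3 and soft gel 2 was small and the gene did not pass. Its log2 fold change was 0.32 (SE 0.131, edgeR adjusted p = 0.0896), a fold of 1.25 (95% interval 1.02 to 1.53, before adjustment for the number of genes). It passed with the replicate number as a block (adjusted p = 0.0368) and on TPM values (0.0353 and 0.0376). The PSMB9 model overlaps TAP1 on the other strand over 8770 bases, the whole TAP1 model, and held 635 to 785 counts per library. With no strand setting stated, reads of TAP1 and PSMB9 in that overlap cannot be told apart by strand.

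TAP2, the partner subunit (ENSG00000204267, chromosome 6, 32821833 to 32838780, minus strand), was at 63.8, 56.5 and 56.2 CPM in 2D and 60.9, 66.0 and 58.0 CPM in soft gel. The groups overlapped, and the log2 fold change was 0.07 (SE 0.112, edgeR adjusted p = 0.672), a fold of 1.05 with a 95% interval of 0.88 to 1.25. Without rigid dish 3 the sign turned (log2 fold change -0.03, adjusted p = 0.887). The protein-coding model AL669918.1 overlaps TAP2 on the same strand over 16948 bases and held 203 to 317 counts per library (log2 fold change 0.39, edgeR adjusted p = 0.0863), so reads there can be split between them.

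TAPBP, tapasin (ENSG00000231925, chromosome 6, 33299694 to 33314387, minus strand), was at 77.7, 85.4 and 97.1 CPM in 2D and 105, 113 and 115 CPM in soft gel. The groups did not overlap in CPM, and the log2 fold change was 0.36 (SE 0.117, edgeR adjusted p = 0.0478), a fold of 1.28 (95% interval 1.07 to 1.54). This call was lost under 11 of 15 alternatives, among them DESeq2 size factors (adjusted p = 0.0793) and leaving out any 1 of the 6 libraries (0.0685 to 0.169). Its direction was kept in all 15.

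ERAP1, the aminopeptidase that trims peptides in the endoplasmic reticulum (ENSG00000164307, chromosome 5, 96760810 to 96808100, minus strand), was at 85.0, 90.1 and 80.8 CPM in 2D and 86.4, 102 and 91.0 CPM in soft gel. The groups overlapped. Its log2 fold change was 0.13 (SE 0.112, edgeR adjusted p = 0.41) and a fold of 1.09 (95% interval 0.918 to 1.3). ERAP1 overlaps the calpastatin gene CAST on the other strand over 18786 bases. CAST held 12320 to 29402 counts per library and was lower in soft gel (log2 fold change -0.65, edgeR adjusted p = 0.0135). No strand setting is stated, so reads of ERAP1 and CAST in that overlap cannot be told apart.

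The calls of the 5 chain genes were kept under all 15 alternatives run, including DESeq2, limma-voom, limma on TPM values and the removal of each library. Over these 15, the highest adjusted p, in each case with 1 library left out, was 0.021 for HLA-B, 0.0473 for HLA-C, 0.0488 for HLA-E, 0.0422 for HLA-F and 0.0244 for B2M. TAP2 and ERAP1 passed under none of the 15. The number of the 9 genes called ran from 5 to 7, all higher. The 7 came with the replicate block, which called the most genes in all, 6442 (3499 higher). Over the 15 alternatives, genes called in all ran from 1803 to 6442. The reported analysis called 4603 of 16098 (2480 higher).

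**Figure D2:**
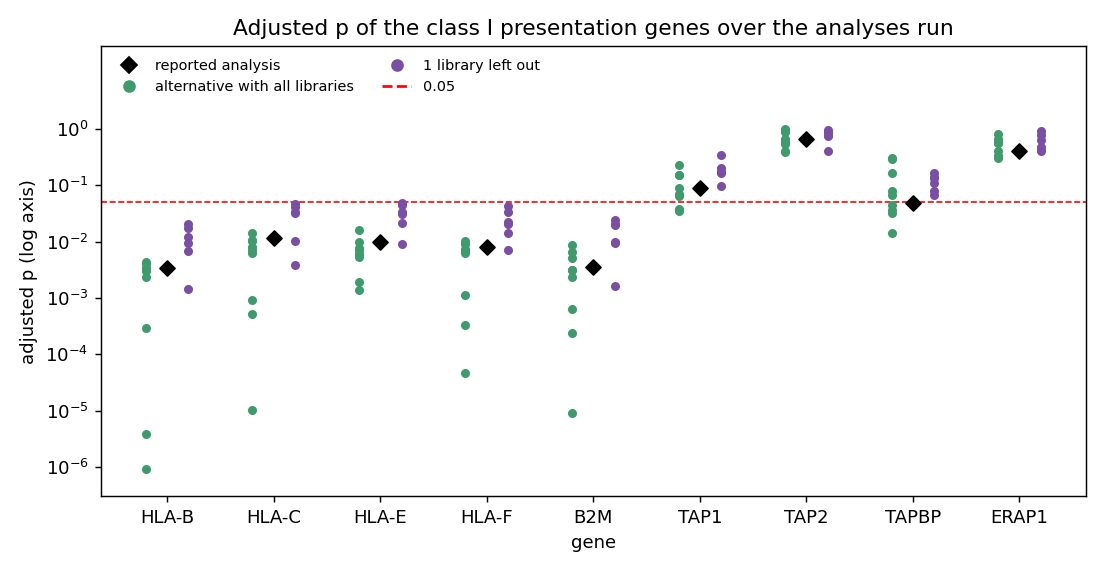
Adjusted p (log axis) of each of the 9 genes in the reported edgeR analysis (black diamonds), in 9 alternatives that kept all libraries (green) and in 6 that left out 1 library (purple), with the 0.05 threshold dashed. All points of HLA-B, HLA-C, HLA-E, HLA-F and B2M lie below the line, those of TAP2 and ERAP1 above it, and those of TAP1 and TAPBP on both sides.

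Levels of different genes were compared per length, as TPM (the authors' values, scaled to gene length and library size). Of all 58884 genes, B2M ranked 17, HLA-C 77 and HLA-B 93 by mean TPM over the 6 libraries, while HLA-E ranked 1101 and HLA-F 3486. The TPM of B2M implies a length far below its listed 1705 bases (values given below), and its level against the other genes rests on that length. In CPM, which is not scaled to length, the 2D means were 1408 for B2M and 1064 for HLA-C. B2M was at 3971 ± 453 TPM in 2D and 7051 ± 265 TPM in soft gel (SD, n = 3 each). HLA-C went from 1224 ± 167 to 2284 ± 188 TPM and HLA-B from 1045 ± 16.4 to 1872 ± 155 TPM. HLA-C per HLA-B in TPM was 0.99, 1.22 and 1.3 in 2D, so that HLA-C was the higher in 2 of 3 libraries. In soft gel it was 1.17, 1.17 and 1.33, and every HLA-C value lay above every HLA-B value. HLA-E (97.2 ± 0.578 to 154 ± 8.82 TPM) and TAP1 (88.8 ± 2.64 to 119 ± 11.9 TPM) followed, about an order of magnitude below HLA-B. TAPBP, HLA-F, ERAP1 and TAP2 were at 48.5, 26.8, 28.3 and 20.7 TPM in 2D. In 2D ERAP1 (21.1 to 32.2 TPM) and HLA-F (25.8 to 28.0 TPM) overlapped. In soft gel HLA-F was at 44.2 to 57.3 TPM and ERAP1 at 28.3 to 34.1 TPM, so that the order of the means reversed.

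The summed level of HLA-B, HLA-C, HLA-E and HLA-F was 2221, 2407 and 2552 TPM in 2D and 4664, 4025 and 4394 TPM in soft gel, a ratio of means of 1.82. The groups did not overlap (exact permutation p = 0.1, two-sided, the smallest that 3 against 3 allows). Of 8 such quantities computed, none could pass 0.05, with or without adjustment. B2M per summed heavy chain, in TPM, was 1.67 ± 0.294 in 2D and 1.62 ± 0.106 in soft gel (SD, n = 3, exact permutation p = 1). That ratio ran from 1.35 to 1.93 in 2D, so a shift smaller than this spread was not detectable. Over rigid dish 1, 2 and 3, B2M rose in CPM (1254, 1453 and 1518) but fell in TPM (4292, 4169 and 3453). How much of the spread comes from the TPM values was not tested. The size of the ratio also rests on the B2M length that the TPM implies (given below). HLA-E made up 4.39%, 4.05% and 3.78% of the heavy chain sum in 2D and 3.3%, 3.6% and 3.7% in soft gel, with no overlap (exact permutation p = 0.1). Together the 4 heavy chains and B2M took 0.29% to 0.355% of all counts in 2D and 0.54% to 0.608% in soft gel.

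Heavy chain RNA was set against the transporter in the same libraries. The summed heavy chain level per TAP1 level, in TPM, was 24.9, 26.4 and 29.7 in 2D and 38.1, 38.1 and 34.1 in soft gel. The groups did not overlap, and the mean ratio went from 27.0 ± 2.46 to 36.7 ± 2.26 (SD, n = 3, exact permutation p = 0.1, the smallest possible).

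For TAP2 and TAPBP the TPM values moved in ways the counts did not. TAP2 was at 19.9, 20.5 and 21.8 TPM in 2D but at 16.4, 36.4 and 31.5 TPM in soft gel, while its CPM ran only from 56.2 to 66.0 over all 6 libraries. TAPBP was at 35.6, 52.9 and 56.8 TPM in 2D and 98.1, 47.0 and 59.6 TPM in soft gel, so that soft gel 1 stood far above the other two and the groups overlapped in TPM. The count per TPM, divided by the listed gene length and by the library's median gene, gives the length the authors' TPM implies. It differed up to 2.16-fold between libraries for TAP2 and 2.16-fold for TAPBP, and 2.56% of 11035 well-counted genes varied as much as TAP2. For TAP1 it varied 1.01-fold and for HLA-C 1.04-fold. For B2M it was 0.323, 0.325 and 0.379 of the listed length in 2D and 0.331, 0.322 and 0.33 in soft gel. That is a 1.18-fold range, and 41% of the well-counted genes varied as much. Over the 6 libraries it was 0.884 to 0.919 for HLA-C and 0.988 to 1.22 for HLA-B. What makes the TPM of TAP2, TAPBP and B2M depart from the counts, the model overlapping TAP2 included, was not tested.

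**Figure D3:**
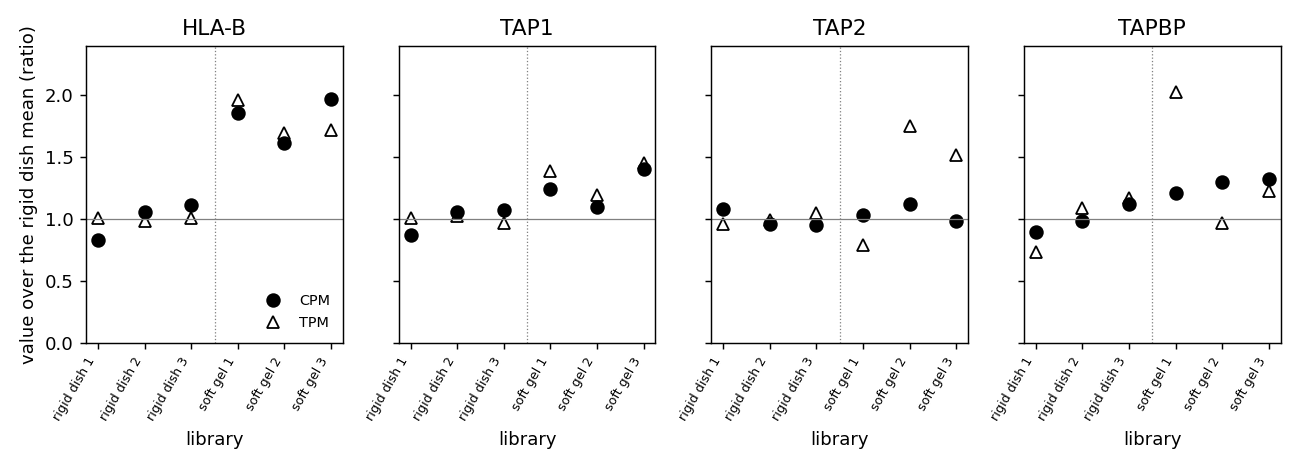
CPM (filled circles) and TPM (open triangles) of HLA-B, TAP1, TAP2 and TAPBP in each of the 6 libraries, each divided by its rigid dish mean. Both units are higher in every soft gel library than in any rigid dish library for HLA-B and TAP1, though the units rank the rigid dish libraries of both genes differently, while for TAP2 the TPM of soft gel 2 and soft gel 3 (36.4 and 31.5) and for TAPBP the TPM of soft gel 1 (98.1) depart from the CPM.

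Heavy chain genes resemble one another and differ between people, so reads can be split among them or lost against a reference genome, and single heavy chain levels are uncertain. In GENCODE release 29 the HLA-B gene model overlaps HLA-C on the same strand over 2640 bases. The pseudogene USP8P1, on the other strand inside the HLA-B model, held 586 to 1148 counts and was also higher (log2 fold change 0.65, edgeR adjusted p = 0.0134). HLA-F-AS1, antisense to HLA-F, held 24 to 44 counts against 424 to 924 of HLA-F.

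Other genes of the same stretch of chromosome 6 were counted too. Of 113 other genes tested between HLA-F and TAPBP on chromosome 6 (29722775 to 33314387), 16 (14.2%) were higher and 23 lower, with a median log2 fold change of 0.01. This stretch was chosen after the values of the members were known.

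The proteasome cuts the peptides that feed the pathway. Of 5 genes of the inducible proteasome and its activator, 0 rose and 2 fell, and the list's median log2 fold change was -0.34. PSME1, a subunit of the PA28 activator, was at 52.0, 77.2 and 76.9 CPM in 2D and 43.1, 42.4 and 46.3 CPM in soft gel (log2 fold change -0.65, edgeR adjusted p = 0.0178). PSME2, the other PA28 subunit, fell from 65.3 ± 3.91 to 50.1 ± 4.31 CPM (SD, n = 3, log2 fold change -0.38, edgeR adjusted p = 0.0344). Both calls were lost when soft gel 1, soft gel 2 or rigid dish 2 was left out, which left 0 of the 5 called. PSME2 was also lost without rigid dish 3 (adjusted p = 0.0581), leaving 1, and without rigid dish 1, 3 of the 5 fell. PSMB9, the immunoproteasome subunit beside TAP1 whose model overlaps it on the other strand over 8770 bases, was at 24.1 to 35.2 CPM in 2D and 26 to 30.1 CPM in soft gel (adjusted p = 0.776). PSMB8, which lies between TAP1 and TAP2, was at 90.6 ± 11.8 and 106 ± 11.6 CPM (edgeR adjusted p = 0.233).

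Of 12 other loading, chaperone and trimming genes, 1 rose and 1 fell, with a median log2 fold change of 0.02. ERAP2, the second aminopeptidase of the endoplasmic reticulum, rose from 4.65 ± 1.61 to 8.77 ± 0.832 CPM (SD, n = 3, log2 fold change 0.91, edgeR adjusted p = 0.0279). THOP1, a cytosolic peptidase that degrades class I peptides, fell from 149.5 to 111 CPM on average (log2 fold change -0.43, edgeR adjusted p = 0.0157). Neither was called when soft gel 1, soft gel 2 or rigid dish 2 was left out, and ERAP2 was also lost without rigid dish 3. On TPM neither was called (ERAP2 0.0712 and 0.083, THOP1 0.0595 and 0.0612, limma adjusted p), leaving 0 of the 12. Without rigid dish 1, 3 of the 12 rose and 2 fell, and without soft gel 3, 1 rose and 2 fell. The chaperones CALR, CANX and PDIA3, named outside the naming rule, had edgeR adjusted p values of 0.994, 0.0902 and 0.421.

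Of 17 transcriptional regulators of class I genes, 1 rose and 3 fell (median log2 fold change -0.07). NLRC5, the class I coactivator, was at 55.2, 67.6 and 72.0 CPM in 2D and 59.7, 64.8 and 62.5 CPM in soft gel, with overlapping groups (log2 fold change -0.06, SE 0.126, edgeR adjusted p = 0.747). On TPM values its sign turned (0.27 and 0.28), again without passing. IRF1, an interferon-responsive factor named after its values were seen, did not pass (log2 fold change -0.48, edgeR adjusted p = 0.141), though it passed as lower without rigid dish 1 (0.00658) and with no low-count filter (0.0146). STAT2, a transcription factor of type I interferon signalling, rose from 66.0 ± 9.76 to 94.1 ± 11.6 CPM (SD, n = 3, log2 fold change 0.51, edgeR adjusted p = 0.0284). EZH2, the Polycomb methyltransferase known to silence class I genes in some tumours, was at 100.1, 83.3 and 72.8 CPM in 2D and 55.6, 47.5 and 49.5 CPM in soft gel (log2 fold change -0.75, edgeR adjusted p = 0.00587). RFXANK, a subunit of the X box factor RFX (-0.68, edgeR adjusted p = 0.0308), and NFKB1 (-0.36, 0.0341) also fell. The count of fallen regulators was 1 when soft gel 1, soft gel 2 or rigid dish 2 was left out, was 5 without rigid dish 1, and ran from 1 to 5 with all libraries kept (1 on TPM, a regulator other than EZH2, RFXANK and NFKB1). STAT2 was not called when soft gel 2, soft gel 3 or rigid dish 2 was left out. Of 7 interferon receptors and kinases, 1 rose and 0 fell. JAK2, which signals from the interferon gamma receptor, rose from 13.8 ± 1.2 to 27.1 ± 8.28 CPM (SD, n = 3, log2 fold change 0.97, edgeR adjusted p = 0.0136), and its call was lost without soft gel 1 or soft gel 2 and on TPM. Without rigid dish 1, 2 of these 7 genes rose and 2 fell, and without soft gel 3, 2 rose and 1 fell. The count of fallen genes among these 7 also moved with all libraries kept. It was 2 with DESeq2 size factors and with the DESeq2 test, and 1 with no low-count filter. With the replicate block 3 rose and 2 fell.

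**Figure D4:**
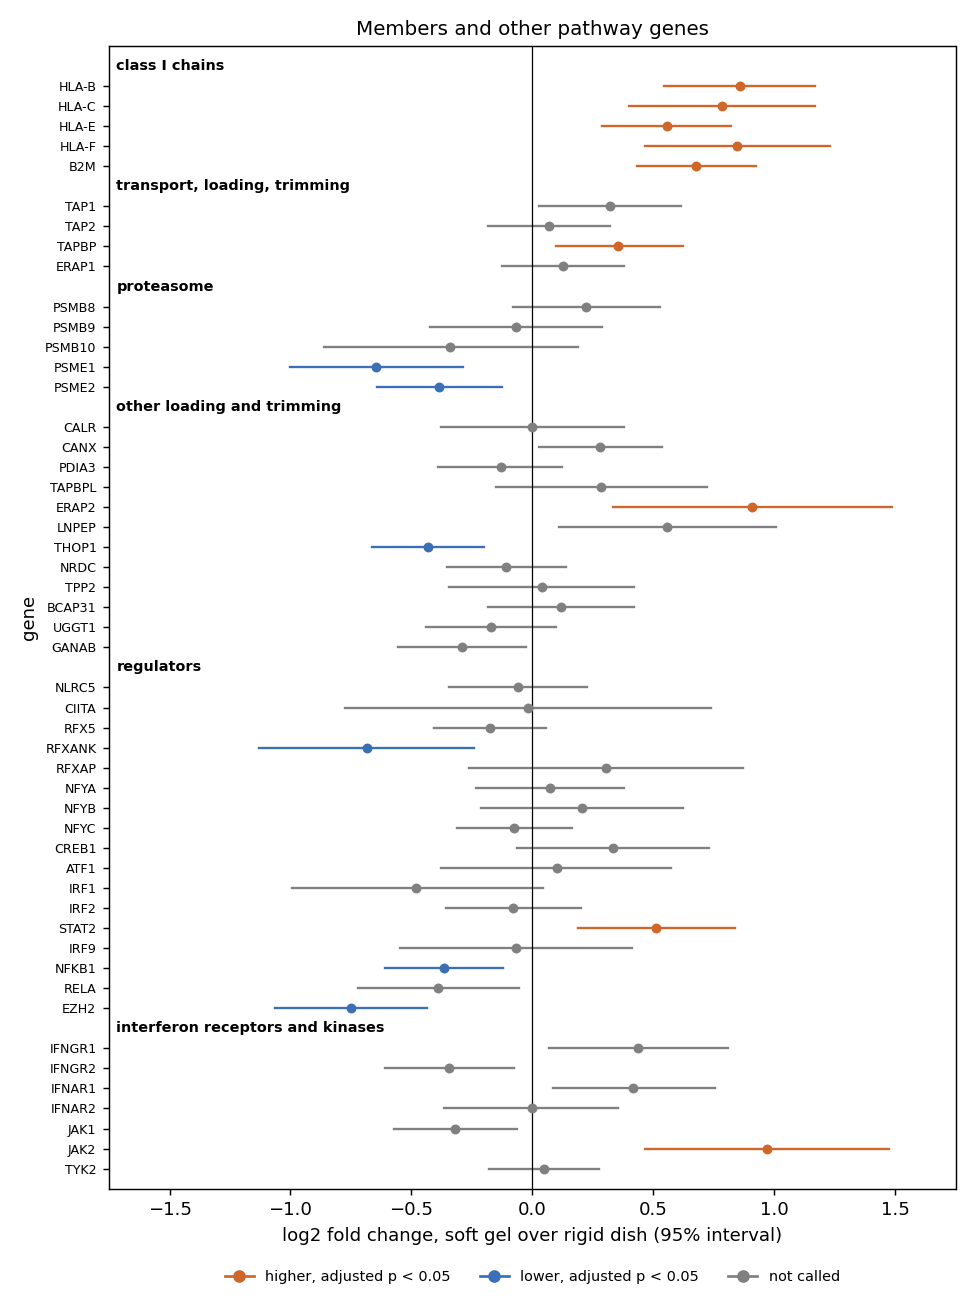
Log2 fold change, soft gel over rigid dish, with its 95% interval, for the 9 members and 4 lists of other pathway genes, coloured by the edgeR call at an adjusted p below 0.05 (orange higher, blue lower, grey not called). The 5 chain genes lie to the right of 0 while 13 of 17 regulators are grey.

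Class I-like genes and ligands of natural killer receptors went both ways, with 4 of 12 tested higher, 2 lower and 2 more of the 14 listed below the low-count filter. MR1, which presents vitamin B metabolites, went from 6.48 ± 1.21 to 12.8 ± 1.31 CPM (SD, n = 3, log2 fold change 0.98, edgeR adjusted p = 0.00604). The NKG2D ligands ULBP2 (log2 fold change 0.67, edgeR adjusted p = 0.00429) and MICA (0.61, 0.0142) also rose, while the related ligand MICB fell from 29 to 20.3 CPM on average (-0.52, 0.0174). PROCR, the protein C receptor with a class I-like fold, fell from 27.9 ± 2.10 to 14.4 ± 1.41 CPM (SD, n = 3, log2 fold change -0.95, edgeR adjusted p = 0.00214). The number risen was 2 without rigid dish 2, and the number fallen was 1 with either soft gel 1 or soft gel 2 left out. On TPM, 2 rose and 1 fell, MR1 and MICB not being called. Among 10 genes of class I turnover, 0 rose and 2 fell, the ubiquitin ligases MARCHF4 (-0.54, edgeR adjusted p = 0.007) and WWP2 (-0.52, 0.0126), neither of them called on TPM. WWP2 was not called when soft gel 1, soft gel 2 or rigid dish 2 was left out, and without soft gel 3, 1 of the 10 rose.

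MHC class II genes, which present peptides taken up from outside the cell, were mostly too low to test: 5 of 12 passed the low-count filter, and 1 was called. HLA-DRA, named after its values were seen, held 3, 0 and 0 counts in 2D and 6, 16 and 5 in soft gel. The called gene was CTSS, a lysosomal protease that cuts the invariant chain, which rose from 2.61 ± 0.330 to 9.30 ± 0.827 CPM (SD, n = 3, log2 fold change 1.83, edgeR adjusted p = 0.000619).

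Class I chains are abundant in leukocytes, so leukocyte markers were read in the same libraries. The defining marker PTPRC (CD45) held 1 to 14 counts per library. Of 11 leukocyte markers, 8 were below 1 TPM in every library and 2 of 4 tested were higher in soft gel. Their summed level was 9.57 to 13.8 TPM in 2D and 38.0 to 46.8 TPM in soft gel, most of it CD68, a lysosomal glycoprotein, which went from 12.0 ± 2.54 to 41.1 ± 3.82 CPM (SD, n = 3, edgeR adjusted p = 0.000419). The other marker that rose was ITGAM, a myeloid integrin subunit, with 8, 2 and 3 counts in 2D and 22, 31 and 19 in soft gel (log2 fold change 2.49, edgeR adjusted p = 0.00841). NKG7 and AIF1, both too low to test, had 0 counts in all 2D libraries and 12, 3 and 4 and 9, 3 and 1 counts in soft gel. The part of these markers in the class I values was not tested. All 5 endothelial markers were below 1 TPM in every library. Of 8 markers of glia and glioblastoma lines, summed at 4771 to 5352 TPM over all libraries, 2 of 7 tested rose and 2 fell. Most of that sum was VIM (means of 2930.4 TPM in 2D and 2233 TPM in soft gel) and CD44 (2125 and 2608 TPM). NES (56.1 and 40.7 TPM) and SOX2 (35.6 and 56.6 TPM) added far less. SOX2 (log2 fold change 0.59, edgeR adjusted p = 0.00509) and CD44 (0.33, 0.0371) were higher in soft gel, and NES (-0.56, 0.0211) and VIM (-0.48, 0.0172) lower. OLIG2 had no counts in any library and GFAP averaged 0.67 TPM in 2D and 0.843 TPM in soft gel.

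The genes whose centred log2 CPM over the 6 libraries lay nearest to that of HLA-B, out of 10043 genes at 10 CPM or more, were SERPINE2, TMEM59 and ARSA, at root mean square distances of 0.0774, 0.0862 and 0.0926. Nearest to B2M were TCTN1 (0.0367), FXYD6 (0.0493) and BEX1 (0.0544), and nearest to TAP1 were ZSWIM7 (0.0458), PQLC2 (0.0469) and MAN1B1 (0.0489). With 6 libraries these distances describe likeness in these data only.

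In the authors' deposited table, 5 of the 9 genes had an adjusted p below 0.05, the same 5 chain genes, against 17.1% of the 29386 genes it tested, and 0 of the 9 were marked significant in its own column, against 3.23% (950 genes). The authors' deposited table gave log2 fold changes of 0.77 for HLA-B, 0.69 for HLA-C, 0.48 for HLA-E, 0.74 for HLA-F and 0.60 for B2M.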

How the data were processed

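RNA was sequenced from 6 libraries of DBTRG cells, 3 per group. HISAT2, HTSeq and hg38 are named, without versions or roles, per the submitters' processing notes. The authors deposited 1 table with estimated counts per gene (11.3% to 13% of genes per library held decimals, with no quantifier named for it in the labels or header), TPM values per library, and their own comparison with a fold (ratio), log2 fold change, p-value and adjusted p-value. Gene length is per the file headers.

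Rounded to whole numbers, counts summed to 20911340 to 25901465 per library. Genes were filtered with filterByExpr (minimum count 10), scaled by TMM and tested in 1 fit of all 6 libraries by the quasi-likelihood test of edgeR (4.0.16), under R 4.3.3 with limma 3.58.1. SE and 95% intervals come from the test statistic. Single values per library were compared by an exact permutation test. A gene was called at a Benjamini-Hochberg adjusted p below 0.05. All 9 members are named. Of each other pathway list, up to 3 called genes per direction with the largest change are named, with PSMB8, PSMB9 and NLRC5, and other genes, cell type markers included, were named after their values were seen. The members and lists were chosen with earlier results of these data known, and 1 listed regulator is not reported here. Alternatives were DESeq2 (1.42.0) and its size factors, upper quartile factors, 2 other filters, a replicate block, limma-voom, limma on log2 TPM (pseudocounts of 1 and 0.1), and leaving out each library. In simulated data for this comparison (15831 genes), 10% of the 1.5-fold changes and 64% of the 2-fold changes were recovered, with 9.76% of calls false. Far fewer genes were changed in the simulation than the 4603 called here, which makes the adjustment stricter there. Its recovered shares therefore do not carry over to these data. Positions are from GENCODE release 29, promoters from RefSeq, and figures were drawn with matplotlib.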

Additional observations from a re-analysis of the deposited data

How the results depend on the processing

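Over all genes tested, 4603 differed. The count was 2313 with limma on log2(TPM + 1) and 2287 on log2(TPM + 0.1), and ran from 1803 to 6164 on leaving out 1 library. Removing rigid dish 2 gave 2026, removing soft gel 1 gave 1963 and removing soft gel 2 gave 1803. Of all calls, 53.9% were higher, against 43.1% without rigid dish 3. With DESeq2 size factors, 5 of the 9 genes were called, TAPBP being lost. The summed heavy chain level kept its direction and its exact permutation p of 0.1 under 8 alternatives, with a log2 ratio of 0.80 to 0.92 against 0.87. In the 6 of these that left out 1 library, the direction could not turn, because the groups did not overlap. There too, 0.1 is the smallest p possible. Signs turned for TAP2 without rigid dish 3 (-0.033, against up to 0.124 without another library), for PSMB9 on TPM (0.009 with either pseudocount) and without rigid dish 3 (0.031, down to -0.194 without another), and for NLRC5 on TPM (0.269 and 0.279), none of them passing, and the cause was not tested. Same-numbered libraries of the 2 groups had deviations correlated at 0.312, 0.024 and 0.457, and differently numbered ones at -0.393 to 0.222. The labels name no pairing, so the reported analysis did not pair them. Whether same-numbered libraries share a source was not tested. Rigid dish 1 and rigid dish 3 each correlated best with their own number, and rigid dish 2 with soft gel 3 (0.043). With the replicate block, 6442 genes and 7 of the 9 members were called, TAP1 being gained (adjusted p = 0.0368). With 3 libraries per group, true changes can be missed, so the genes that did not pass are not shown to be unchanged.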
